A study of Arabidopsis thaliana with 43 samples.

Results

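The transcripts described here are 100 Arabidopsis thaliana genes that stood higher in leaves at the end of a sudden heat shock than before it, on the authors' log2 scale. On that scale they also stood higher there than at the end of a slow rise to the same temperature. They were chosen from the authors' table of log2 values, in which the tubes of one plate were averaged. In each batch a gene was scored as the smaller of its values at T7 and T10 minus the largest of its values at T3, T4, T6 and T9, and its gene score was the lower of the batches. T3, T4, T6 and T9 are called the low time points below, although the rule sets a margin and no upper limit on the levels there. Genes had to reach a log2 value of 3 at T7 and T10 in both batches, 4 named genes and all genes of the chloroplast and mitochondrial genomes were left out, and the 100 highest scores were kept. That table holds 18864 genes, of which 8152 met the floor, 529 of those had a score above 0, and the members are the top 100. The values at T3, T4, T6, T7, T9 and T10 therefore chose the members, and these values are given below as a description with no test. The time points T1, T2, T5, T8 and T11 played no part in the choice, and the tests are between these.

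All plants were seedlings of the Col-0 accession, and only leaf tissue was taken. T7 was the end of a sudden 90 min at 45 °C on day 16 in seedlings that had been acclimated on day 12, and T8 followed on day 18, 2 days after that shock and back at 22 °C. T10 and T11 were the same points in seedlings that had not been acclimated, and T9 was their state before the shock on day 16 at 22 °C. Acclimation was a 6 h ramp from 22 °C to 45 °C, sampled at dawn before it at 22 °C (T1), after 3 h at 38 °C (T2) and after 6 h at 45 °C (T3), and then 90 min at 45 °C (T4, 7.5 h after the start). T5 and T6 were acclimated seedlings 2 and 4 days later, on days 14 and 16, at 22 °C. No seedlings were sampled on days 14 or 18 that had met no heat, so each late time point is set against heated plants. Each time point had n = 2 plates of about 80 seedlings, 1 per batch, whose leaves were split between 2 tubes. The tubes gave 43 libraries, since 1 tube of T3 was not analysed here. The protocol text and the sampling temperature labels assign T7 to T9 differently, and the roles used here follow the labels of time point and temperature.

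Plants meet heat with heat stress transcription factors, which bind heat shock elements in promoters and switch on chaperone genes. A slow rise lets this programme run before the temperature becomes damaging. The tolerance of later heat gained in this way is called acquired thermotolerance. Heat can also call on hormone and dehydration signalling. Abscisic acid, the hormone of water deficit, acts through clade A protein phosphatases and through factors that bind promoter sites with the core ACGTG.

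Libraries held 6.36 to 21.3 gene counts in units of 1e6 (median 9.53), and both tubes of each of the 21 plates with a pair differed by more than sampling noise. The leaf mesophyll markers RBCS1A, CAB1 and RCA were abundant on every plate, together 4982 to 157400 CPM (counts per 1e6 after TMM scaling, the unit of every level below). The 2 plates labelled T11 stood apart from the other plates at 22 °C. HSP101, the chaperone that unfolds aggregated proteins, had 3601 and 1241 CPM at T11 in batches 1 and 2, against 372 and 484 CPM at T8 and 5.86 and 7.54 CPM at T9. The other plates at 22 °C were not all alike: HSP101 had 12.8 and 320 CPM at T5 and 7.37 and 98.3 CPM at T6. The T5 and T6 plates of batch 2 also had the least alike pairs of tubes (r of 0.932 and 0.881). T5 is the reference for T11 and for T8 in tests below. HSFA2, a heat stress factor, had 1623 and 866 CPM at T11 against 91.2 and 150 CPM at T8. MBF1C, a transcriptional coactivator of heat responses, had 2063 and 653 CPM at T11 against 117 and 164 CPM at T8. In the test of T11 against T8 given below MBF1C was called higher, and HSP101 and HSFA2 did not pass. These heat genes are no members, because they were far lower at the end of the shock than in the ramp: HSP101 had 1811 to 5961 CPM at T7 and T10, against 27980 to 44210 CPM at T3 and T4. So 2 days after the shock the plates labelled T11 held HSP101, HSFA2 and MBF1C near their T7 and T10 levels (HSFA2 1012 to 2322 CPM and MBF1C 546 to 2385 CPM over T7 and T10). Whether these plates carry the right label was not tested, and every result at T11 below is a result of the plates labelled T11.

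The promoters of 4 members are shown because 3 of them had the highest scores and the fourth, HSFA7A, was the only heat stress factor among the members. Each run is the 250 bases before the annotated start in RefSeq TAIR10.1, read 5′ to 3′ on the gene's strand: PUB19 on the plus strand of chr1:22198016-22198265, HAI2 on the minus strand of chr1:2282829-2283078, ACS6 on the plus strand of chr4:6863729-6863978 and HSFA7A on the plus strand of chr3:19264891-19265140. No annotated exon lies in these windows. Capitals mark ACGTG on either strand and the heat shock element GAANNTTC, which reads the same on both strands.
PUB19: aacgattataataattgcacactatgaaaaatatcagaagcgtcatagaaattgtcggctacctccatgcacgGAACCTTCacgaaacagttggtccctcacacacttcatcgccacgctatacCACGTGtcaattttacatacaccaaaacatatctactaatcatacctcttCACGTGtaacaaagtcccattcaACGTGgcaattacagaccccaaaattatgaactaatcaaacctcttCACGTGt
HAI2: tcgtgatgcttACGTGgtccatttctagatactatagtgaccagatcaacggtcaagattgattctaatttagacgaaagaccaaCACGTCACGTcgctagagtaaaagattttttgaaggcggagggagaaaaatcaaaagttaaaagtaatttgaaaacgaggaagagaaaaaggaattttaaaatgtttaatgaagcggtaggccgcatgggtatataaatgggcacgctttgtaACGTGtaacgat
ACS6: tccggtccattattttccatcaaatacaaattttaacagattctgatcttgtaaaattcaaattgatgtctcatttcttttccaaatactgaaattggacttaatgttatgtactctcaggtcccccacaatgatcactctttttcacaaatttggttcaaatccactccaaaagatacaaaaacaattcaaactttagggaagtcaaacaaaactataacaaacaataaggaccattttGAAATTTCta
HSFA7A: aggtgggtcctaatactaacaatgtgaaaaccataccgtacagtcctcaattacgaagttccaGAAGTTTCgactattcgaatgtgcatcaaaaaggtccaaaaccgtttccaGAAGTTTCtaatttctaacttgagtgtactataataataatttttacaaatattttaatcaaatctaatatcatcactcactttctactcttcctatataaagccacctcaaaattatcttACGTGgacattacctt
The PUB19 window held 3 copies of the palindrome CACGTG, in each of which ACGTG lies on both strands, 1 further ACGTG and 1 GAANNTTC. The HAI2 window held 4 ACGTG cores, 2 on each strand, and no GAANNTTC. The ACS6 window held 1 GAANNTTC and no ACGTG. The HSFA7A window held 2 GAANNTTC elements and 1 ACGTG.

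Over the window from 250 bases before to 50 bases after the start, searched on both strands, GAANNTTC was in 19 of 100 member promoters (19.0%), against 11.2% of the promoters of genes that met the floor and 11.6% of the 27443 promoters of all protein-coding genes. The longer element, in which any pair of bases and then GAA follow GAANNTTC, was in the promoters of 4 members, PUB19, HSFA7A, DIP2 and MCM6, or 4.0%, against 0.69% of genes that met the floor and 0.481% of all. Those 4 were picked out after the search. ACGTG was in 32.0% of member promoters, against 28.9% of genes that met the floor and 26.7% of all. CCGAC, the core of the dehydration-responsive element, was in 20% of member promoters against 17.3% and 15.0%. The W-box, TTGACC or TTGACT, was in 32.0% against 31.3% and 32.4%, and GCCGCC in 4.0% against 2.54% and 2.57%. The CGCG box, in any of 7 forms that contain CGCG and may overlap, was in 6.0% against 8.88% and 7.62%. TATAAA was in 42.0% against 50.3% and 52.1%. These shares describe letters in a window and were not tested.

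The members lay on all 5 nuclear chromosomes, 30 on chromosome 1, 10 on chromosome 2, 15 on chromosome 3, 21 on chromosome 4 and 24 on chromosome 5. The only neighbouring pair was SEOa and SEOR1, which encode related filament proteins of phloem sieve elements. The 20 members with the highest scores had a median of 2 exons, and 7 of them (35.0%) had a single exon. All 100 members had a median of 6.5 exons with 11 single-exon genes (11.0%), against a median of 6 and 7.8% among the other genes that met the floor. Median transcript length was 1894 bases in members and 1819 bases in those others. In the annotation 26 members overlap a gene on the opposite strand, among them RAB18, GSNAP, AT4G02850, EMB2656, NEDD1, ICS2, JAM3, AT2G02400, AT1G25375 and AT2G45260. Whether reads were counted by strand is not stated in these sources, so the counts of these members may include reads of the partner.

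The scores ran from 2.78 log2 units to 0.395, with a median of 0.515, and 10 members scored 1 or more. The last members inside the threshold were AT4G37210 (0.397), LPAT4 (0.396) and AT5G50410 (0.395). The first genes outside it were PHS1 (0.393), NHO1 (0.386) and PRMT4B (0.385), so the values fall smoothly across the threshold. With the same rule on TMM log2 CPM of the counts 67 of the members stayed in the list, and with library size log2 CPM 29 did. The score was larger in batch 1 than in batch 2 for 66 members, with medians of 0.737 in batch 1 and 0.582 in batch 2. The value that limited the score was most often one at 22 °C: the highest of the 4 low time points was T9 in 36 members and T6 in 34 in batch 1, and T9 in 34 and T6 in 31 in batch 2.

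**Figure D1:**
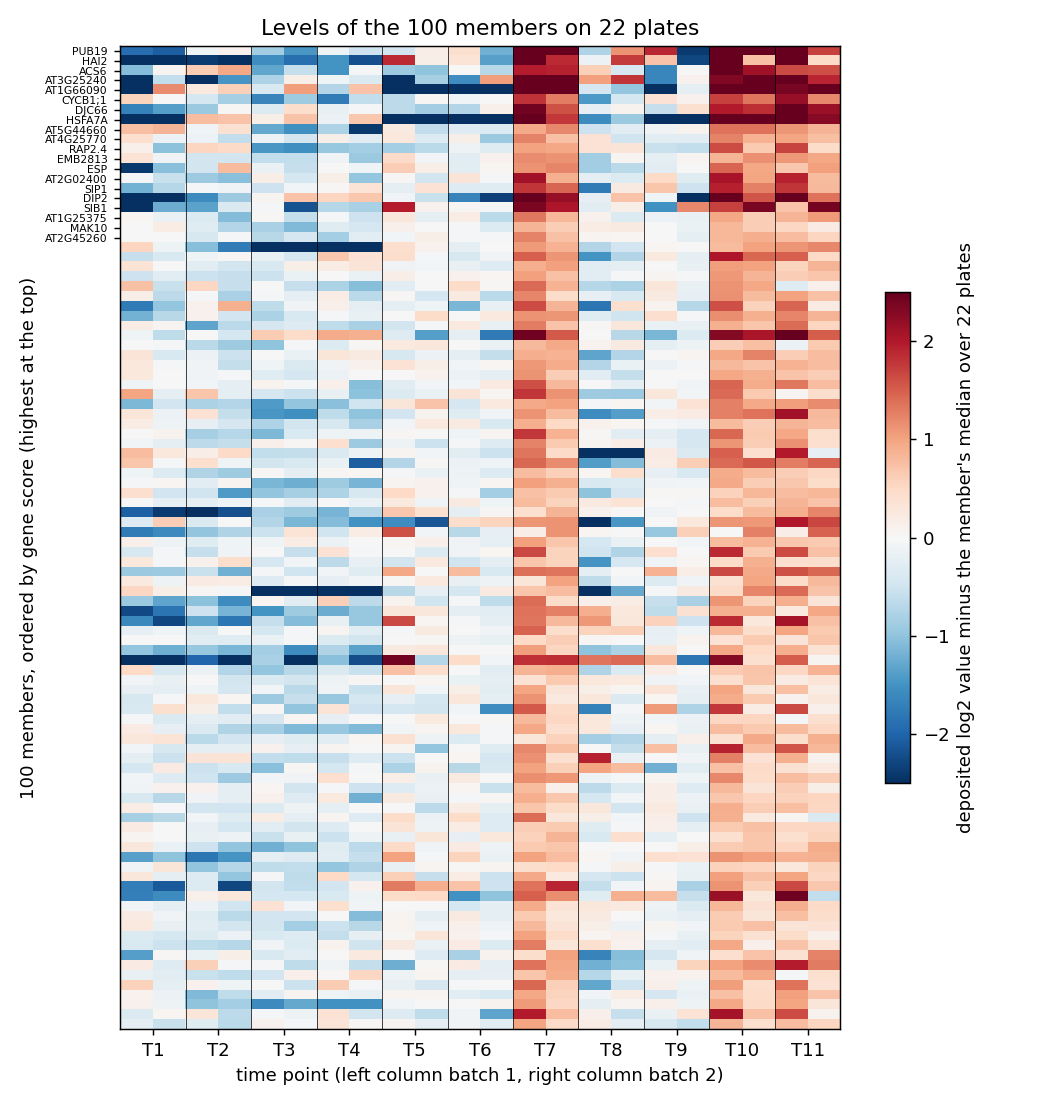
Heat map of the 100 members (rows, highest score at the top) on 22 plates (columns, T1 to T11 with batch 1 left of batch 2); colour is the deposited log2 value minus the member's median over the plates. T7 and T10 are high because the rule chose them; the T11 columns, which the rule did not use, are red in most rows, and the T8 columns are mostly pale or blue.

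PUB19 encodes a U-box ubiquitin ligase known to dampen abscisic acid and drought responses, and it had the highest score. It had 287 and 124 CPM at T7 and 239 and 42.8 CPM at T10 in batches 1 and 2, against 1.38 to 24.7 CPM over the 8 plates of T3, T4, T6 and T9. The T9 plate of batch 1 (24.7 CPM) was the highest of those 8 plates. HAI2 encodes a clade A protein phosphatase of abscisic acid signalling. It had 70.5 and 26.7 CPM at T7 and 58.4 and 12.6 CPM at T10, against 1.06 to 12.4 CPM at T3, T4, T6 and T9, and batch 1 lay above batch 2 at both shock points. ACS6 encodes an enzyme that makes the ethylene precursor ACC. It had 84.5 and 75.9 CPM at T7 and 123 and 83.0 CPM at T10, against 5.68 to 20.3 CPM at the 4 low time points, and at T4 and T9 batch 2 lay above batch 1. AT3G25240, a gene of unknown function, had 75.5 and 38.0 CPM at T7 and 21.2 and 22.1 CPM at T10, against 0.885 to 6.08 CPM. AT1G66090, annotated as a disease resistance protein of the TIR-NBS class, had 39.0 and 32.7 CPM at T7 and 106 and 70.9 CPM at T10, against 0.305 to 10.3 CPM. AT1G66090 was lower at T7 than at T10 in both batches, whereas AT3G25240 was higher at T7 than at T10 in both.

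HSFA7A was already well above its T6 and T9 levels during the ramp. It had 342 and 154 CPM at T7 and 446 and 353 CPM at T10, against 45.9 to 95.9 CPM at T3 and T4 and 0.488 to 1.70 CPM at T6 and T9. So the margin that made it a member was set by T3 and T4 and not by T6 and T9. DJC66 (AT3G13310), a chaperone J-domain protein, had 110.5 and 51.8 CPM at T7 and 79.6 and 63.6 CPM at T10, against 11.2 to 23.4 CPM at the low time points. CYCB1;1, a mitotic cyclin, had 15.2 and 11.3 CPM at T7 and 14.6 and 12.2 CPM at T10, against 0.609 to 6.47 CPM, with its lowest levels at T3 and T4. DIP2, annotated as a ubiquitin ligase, differed widely between batches: 180 CPM in batch 1 and 34.6 CPM in batch 2 at T7, and 222 and 22.9 CPM at T10, against 1.0 to 11.2 CPM. RAP2.4, an AP2-type transcription factor, was the most abundant of the 20 highest-scoring members at T7, with 484 and 352 CPM at T7 and 788 and 290 CPM at T10 against 72.5 to 126 CPM.

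The rest of the 20 had scores from 0.762 (AT2G45260) to 1.03 (AT5G44660). ESP, which steers the breakdown of glucosinolates towards nitriles, had 63.1 to 89.6 CPM over the 4 shock plates against 22.8 to 31.7 CPM. SIP1, a raffinose synthase, had 62.3 to 115 CPM on the shock plates against 17.3 to 37.8 CPM. EMB2813, the large subunit of DNA primase, had 17.3 to 20.9 CPM against 3.65 to 10.9 CPM. SIB1, a plastid sigma factor binding protein with a role in defence, had 11.2 to 17.2 CPM against 0.326 to 8.51 CPM. AT2G02400, annotated as a Rossmann-fold protein, had 18.01 to 46.0 CPM against 3.93 to 14.7 CPM. AT5G44660, of unknown function, had 25.1 to 34.7 CPM against 3.01 to 14.7 CPM. The hydrolase-family gene AT4G25770 had 19.6 to 27.6 CPM against 7.41 to 13.4 CPM. AT1G25375, a metallo-hydrolase family gene, had 11.3 to 17.1 CPM against 3.51 to 8.88 CPM. MAK10 had 24.6 to 28.8 CPM against 6.19 to 16.0 CPM, and AT2G45260 had 29.6 to 43.4 CPM against 8.12 to 17.36 CPM. In all of these 20 the shock plates lay above the low plates in each batch, as the rule required.

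**Figure D2:**
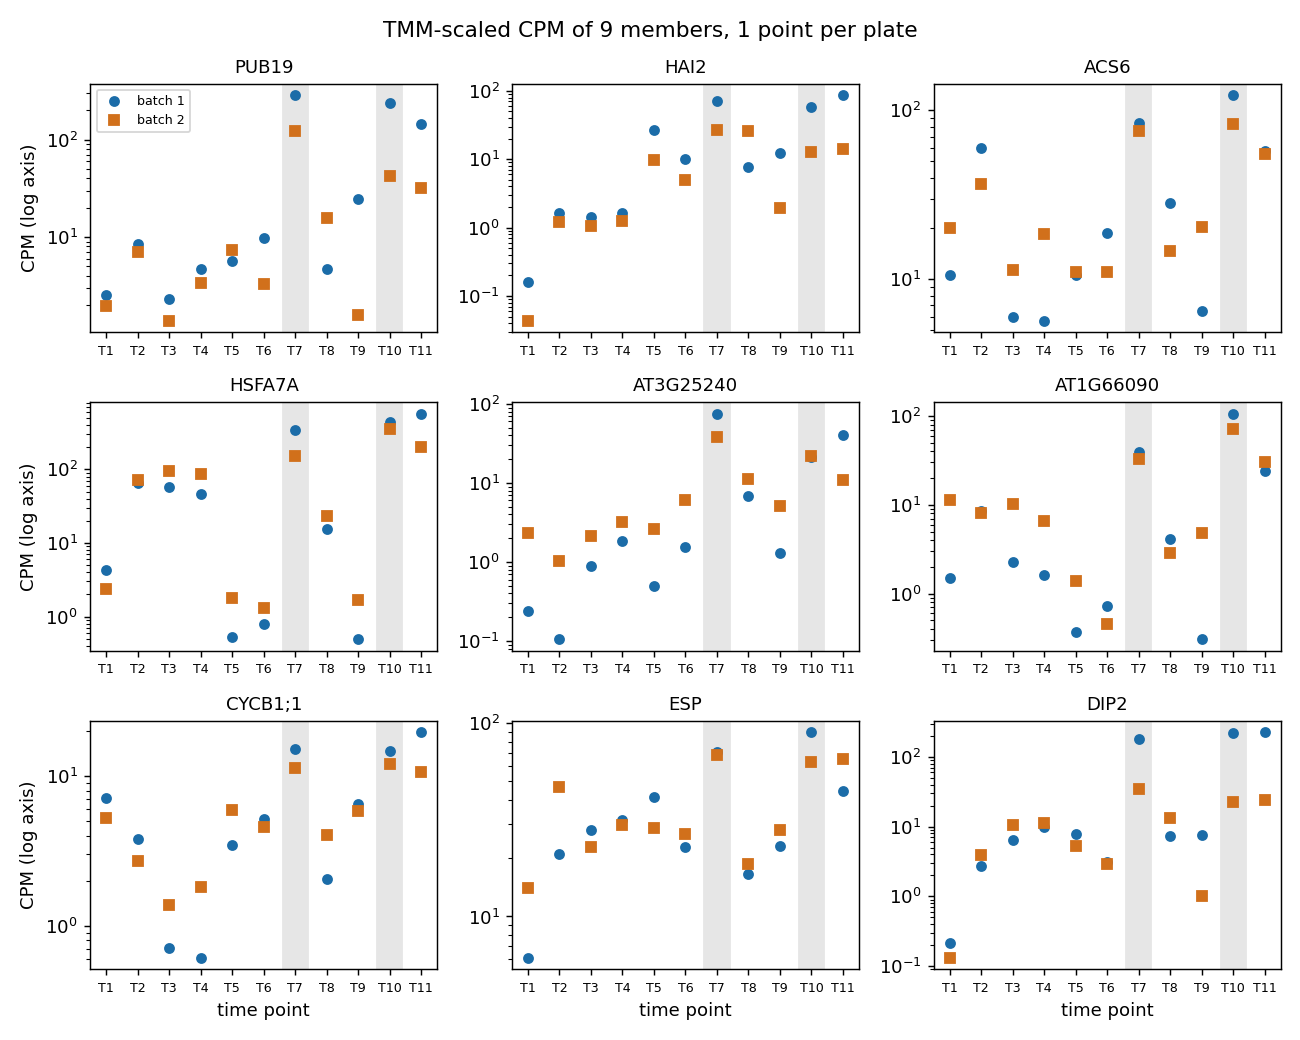
TMM-scaled CPM (log axis) of 9 members at T1 to T11, 1 point per plate, circles for batch 1 and squares for batch 2; grey bands mark the shock time points T7 and T10 used by the rule. At T11 PUB19 stood at 143 and 31.7 CPM and HSFA7A at 573 and 203 CPM. PUB19 lay below its shock plates in both batches. HSFA7A lay above its shock plates in batch 1 and between them in batch 2.

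Acclimated and non-acclimated leaves held the members at similar levels at the end of the shock. The median member stood at 4.82 and 4.53 on the deposited log2 scale at T7 and at 4.77 and 4.51 at T10. In 29 members T7 lay above T10 in both batches, and in 20 below it. Among the genes that met the floor the shares were 33.2% above and 36.3% below. Since the rule takes the lower of T7 and T10, it favours genes in which they are alike, and nothing further is read from these counts.

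By 2 days after the shock the members had parted. Their median was 4.67 and 4.31 log2 units at T11 against 3.40 and 3.46 at T8, 3.68 and 3.48 at T5, and 3.65 and 3.50 at T9. At T11, 90 members lay above the highest of T3, T4, T6 and T9 in both batches, against 10.6% of the genes that met the floor. At T8 the number was 14 (13.5% of those genes), at T5 it was 19 (8.07%), at T2 it was 6 (5.99%) and at T1 it was 7 (12.7%). The reference values in these counts are those the rule used, so they are a description. T11 lay above T9 in both batches for 94 members (42.4% of the genes that met the floor), and T8 lay above T6 for 31 (29.3%) and below it for 30 (35.2%). T11 lay below T10 in both batches for 46 members (36.9%) and above it for 15 (34.2%).

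The test of T11 against T8 compares non-acclimated with acclimated leaves 2 days after the same shock, on the same day. In this comparison 55 members were higher and 0 were lower at T11 (edgeR quasi-likelihood test, Benjamini-Hochberg adjusted p under 0.05), against 13.4% higher and 13.9% lower of all 20980 genes tested. At an unadjusted p under 0.05 there were 66 members, against 8592 of the 20980 genes tested. The median log2 change was 0.94 in members and -0.01 in all genes tested, and it was 1.04 in batch 1 and 0.80 in batch 2 for members. Genes that met the floor of the rule are a closer background, and their medians were 0.218 in batch 1 and 0.183 in batch 2. Both T11 plates lay above both T8 plates in 77 members (29.2% of all genes tested) and below them in 1 (30.4%). All 100 members passed the filter on low counts. DESeq2 called 59 members higher and 0 lower, and limma on the deposited log2 values 60 and 0. Scaling by library size shifted the median of all genes to -0.54 and left 21 members higher and 2 lower, with a member median of 0.42. The call rests in part on 1 plate: without the T8 plate of batch 1, 19 members were higher, and without any other plate of this comparison 40 to 47. With only the 4 plates of this comparison in the fit, 0 members passed, at 1 residual degree of freedom.

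The share called higher followed the score. At T11 against T8 it was 13 of the 20 highest-scoring members (65.0%) and 42 of the other 80 (52.5%). It was 143 of the 429 genes ranked below the members with a score above 0 (33.3%), and 1459 of the 7623 genes that met the floor with a score at or below 0 (19.1%). The score rests on other plates than this comparison, but the plates labelled T11 held HSP101, HSFA2 and MBF1C near their T7 and T10 levels. No test of this order was made.

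In bulk leaf tissue a lower level can come from fewer cells of a type or from less RNA per cell, and these cannot be told apart. All 3 mesophyll markers were higher at T11 than at T8, and together they had 39900 and 37730 CPM at T11 against 4982 and 11770 CPM at T8 and 26130 and 19040 CPM at T5. The 4 guard cell and stomatal lineage markers had 12.1 and 15.5 CPM at T11 against 14.1 and 7.54 CPM at T8, and SPCH and EPF2 were called higher at T11. The 4 root markers had 6.22 and 30.8 CPM at T11 against 4.42 and 12.2 CPM at T8, with PIN2 called higher. The 3 vascular markers had 117 and 83.8 CPM at T11 against 188 and 178 CPM at T8, with SWEET11 called lower. No marker was at 0 on these plates, and the part of these shifts in the members' changes was not tested.

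**Figure D3:**
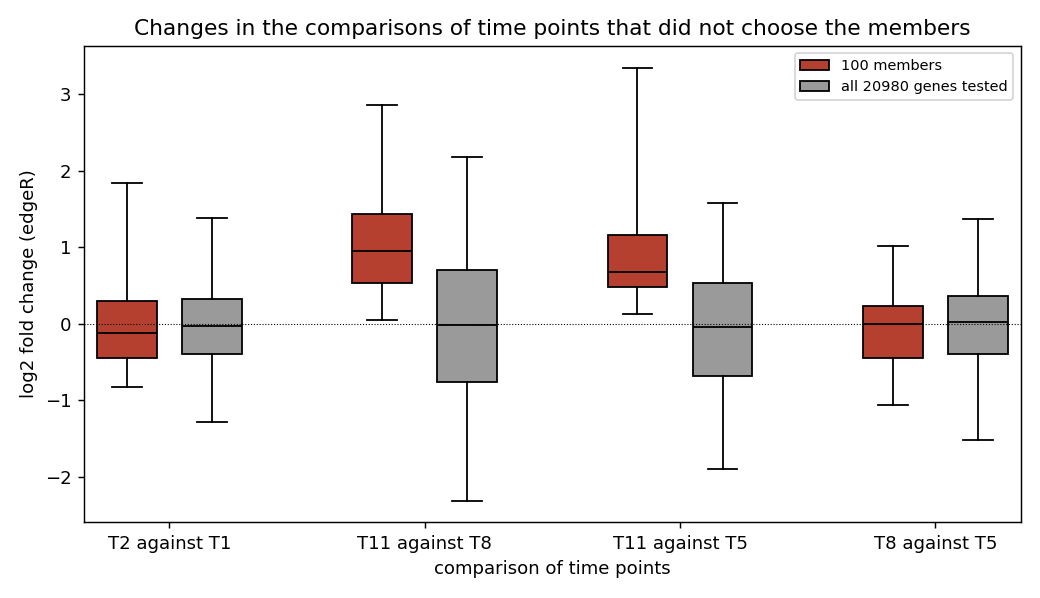
Log2 fold changes in the 4 comparisons of time points that the rule did not use, members in red left of all 20980 genes tested in grey; boxes span the quartiles with the median as a line, and whiskers reach the 5th and 95th percentiles. The members' boxes lie above 0 at T11 against T8 (median 0.94) and T11 against T5 (median 0.67), and around 0 in the others.

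The largest change at T11 against T8 was in AT3G05600, an alpha/beta-hydrolase family gene. It had 44.2 and 11.0 CPM at T11 against 0.676 and 0.724 CPM at T8, a log2 change of 5.17 ± 0.53 (SE, adjusted p = 0.000185, edgeR). Its T8 plates were the lowest of all 22, and at T5 it had 12.5 and 11.1 CPM. HSFA7A had 573 and 203 CPM at T11 against 15.4 and 22.9 CPM at T8, a log2 change of 4.40 ± 0.71 (adjusted p = 0.00122, edgeR). AT4G02850, annotated as a phenazine biosynthesis family protein, had 40.8 and 35.2 CPM at T11 against 2.14 and 4.38 CPM at T8, a log2 change of 3.58 ± 0.34 (adjusted p = 0.000162, edgeR). Its T11 plates were the highest of all 22. DIP2 had 225 and 24.3 CPM at T11 against 7.33 and 13.3 CPM at T8, a log2 change of 3.01 ± 1.01 (adjusted p = 0.0398, edgeR), and the batches differed widely, at 4.92 in batch 1 and 0.86 in batch 2.

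The test of T11 against T5 sets leaves 2 days after a first, sudden heat against leaves 2 days after a first, slow heat, on days 18 and 14. Here 33 members were higher and 0 lower at T11, against 5.06% higher and 6.71% lower of all genes tested, and 63 members had an unadjusted p under 0.05. The median log2 change was 0.67 in members and -0.04 in all genes, with 0.69 in batch 1 and 0.70 in batch 2 for members. For genes that met the floor of the rule the medians were 0.127 in batch 1 and 0.23 in batch 2. Both T11 plates lay above both T5 plates in 77 members (24.2% of all genes tested) and below them in 0 (26.8%). Of the 20 highest-scoring members 13 were called higher, and of the other 80 it was 20. The count moved with the settings: it was 50 with DESeq2, 37 with limma, 12 with library size scaling and 10 without the batch term. With only the 4 plates of this comparison it was 0. It was 5 without the T11 plate of batch 1, 21 without that of batch 2, and 10 and 9 without the T5 plates of batches 1 and 2.

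HSFA7A showed the largest change against T5, where it had 0.535 and 1.79 CPM, a log2 change of 8.42 ± 0.87 (adjusted p = 0.000296, edgeR). AT1G66090 had 24.0 and 30.4 CPM at T11 against 0.37 and 1.40 CPM at T5, a log2 change of 5.05 ± 1.02 (adjusted p = 0.0099, edgeR). AT3G25240 had 40.6 and 10.8 CPM at T11 against 0.494 and 2.64 CPM at T5, a log2 change of 4.51 ± 1.0 (adjusted p = 0.0145, edgeR). DIP2 had a log2 change of 3.88 ± 1.03 against T5 (adjusted p = 0.0287, edgeR). PUB19 had 143 and 31.7 CPM at T11 against 5.64 and 7.28 CPM at T5 (3.34 ± 0.93, adjusted p = 0.0343, edgeR) and 4.71 and 15.5 CPM at T8 (2.52 ± 0.91, adjusted p = 0.0527). Against T8 its plates did not overlap, but the change did not pass the test.

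In all, 8 members are known for abscisic acid or dehydration responses; this grouping, like those below, was made by hand after the members were known. At T11 against T8, 3 of them were higher, 0 lower and 5 did not pass. RAP2.4 had 678 and 232 CPM at T11 against 172 and 182 CPM at T8 (log2 change 1.28). SIP1 had 92.2 and 43.0 CPM at T11 against 8.40 and 29.8 CPM at T8 (1.81). LEA14, a late embryogenesis abundant protein, had 283 and 103 CPM at T11 against 106 and 66.7 CPM at T8 (1.04). HAI2 had 87.2 and 13.9 CPM at T11 against 7.58 and 26.3 CPM at T8, so the batches ran in opposite directions. RAB18, a dehydrin, had 171 and 92.7 CPM at T11 against 106 and 116 CPM at T8, and NCED3, which makes the first committed step of abscisic acid synthesis, had 47.2 and 6.48 CPM at T11 against 8.85 and 18.3 CPM at T8. HB-12, a homeodomain factor, had 37.8 and 15.3 CPM at T11 against 4.42 and 13.3 CPM at T8. Against T5, PUB19 and RAP2.4 were higher at T11 and 6 of the 8 did not pass. Without the T8 or the T11 plate of batch 1, 0 of the 8 passed at T11 against T8, and with library size scaling the number was also 0.

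The 10 members grouped by hand under DNA replication and cell division were all higher at T11 than at T8, with log2 changes from 0.78 to 2.32 (median 1.25). The share called higher was 13.4% of all genes tested, and 19.1% of genes that met the floor with a score at or below 0. AT5G50410, which is annotated as a ribonucleoside-diphosphate reductase subunit and was not put in this group, had 16.4 and 14.4 CPM at T11 against 12.5 and 9.14 CPM at T8 and did not pass (log2 change 0.52 ± 0.19, adjusted p = 0.0557, edgeR). CYCB1;1 had 19.6 and 10.7 CPM at T11 against 2.06 and 4.04 CPM at T8, a log2 change of 2.32 ± 0.45 (adjusted p = 0.00292, edgeR). RPA70D, a subunit of the single-stranded DNA binding complex, had 26.0 and 28.7 CPM at T11 against 8.85 and 9.75 CPM at T8 (1.56). MCM6 and MCM3, subunits of the replicative helicase, had 18.5 and 20.2 CPM and 25.5 and 34.7 CPM at T11, against 6.45 and 9.07 CPM and 12.4 and 15.5 CPM at T8. ETG1, a replisome factor, had 21.8 and 21.3 CPM at T11 against 8.57 and 11.9 CPM at T8. HTA7, a histone H2A, had 90.4 and 45.6 CPM at T11 against 14.5 and 24.1 CPM at T8, and EMB2656, a condensin subunit, had 14.01 and 17.0 CPM against 4.51 and 6.36 CPM. The spindle genes AUG3 and NEDD1 had 19.9 CPM on both plates and 17.5 and 16.2 CPM at T11, against 11.9 and 9.29 CPM and 9.92 and 9.75 CPM at T8.

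Against T5 only 2 of these 10, CYCB1;1 (1.67) and HTA7 (1.25), passed, and MCM3 had a log2 change of 0.05. In that comparison 0 passed without either T5 plate, without the T11 plate of batch 1, without the batch term or with library size scaling, and 4 passed with DESeq2. At T8 against T5 none of the 10 passed, with log2 changes from -1.06 to -0.37. All 10 were above 0 at T11 against T8 under every setting tried, including library size scaling, where 4 passed. Without the T8 plate of batch 1, 3 passed. Among the 4 guard cell and stomatal lineage markers, SPCH and EPF2, which mark young dividing epidermal cells, were called higher at T11 than at T8. FAMA had 4.27 and 5.30 CPM at T11 against 10.45 and 5.41 CPM at T8, and MYB60 had 0.974 and 4.74 CPM at T11 against 2.37 and 1.41 CPM at T8, and neither passed. The part of these markers in the members' changes was not tested.

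The other members with hormone roles were mixed. DFL1, an enzyme that conjugates auxin to amino acids, had 240 and 120.5 CPM at T11 against 22.4 and 24.6 CPM at T8 (log2 change 2.89, passed) and 21.6 and 46.7 CPM at T5 (2.31, passed). ICS2, an isochorismate synthase, was higher than at T8 (1.37) and did not pass against T5 (0.19). ACS6 had 57.7 and 54.9 CPM at T11 against 10.6 and 11.1 CPM at T5, a log2 change of 2.38 ± 0.59 (adjusted p = 0.0222, edgeR), and against 28.2 and 14.7 CPM at T8 it did not pass (1.37). CKX7, a cytokinin oxidase, had 18.7 and 11.1 CPM at T11 against 41.2 and 9.98 CPM at T8, with the T8 plate of batch 1 alone high. OPCL1, an enzyme of jasmonate synthesis, and JAM3, a bHLH repressor of jasmonate responses, had log2 changes of 0.01 and 0.12 against T8 and did not pass.

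DJC66 had 149 and 74.5 CPM at T11 against 15.6 and 18.4 CPM at T8 (2.74) and 11.4 and 9.26 CPM at T5 (3.45), and it passed both tests. ESP had 44.4 and 64.9 CPM at T11 against 16.6 and 18.7 CPM at T8 (1.62, passed) and did not pass against T5 (0.61). SIB1 had 5.36 and 17.3 CPM at T11 against 3.13 and 4.19 CPM at T8 and did not pass. CLH1, a chlorophyllase, was higher than at T8 (2.15) and T5 (1.11). SEOR1 was higher than at T8 (1.07), while its neighbour SEOa did not pass (0.67); the vascular markers as a sum were lower at T11 than at T8. Of 5 members of vesicle traffic only GSNAP, an adaptor of membrane fusion, was higher than at T8 (1.12) and than at T5 (1.15). MAK10 had 21.2 and 18.8 CPM at T11 against 18.8 and 19.1 CPM at T8, so 1 of the 20 highest-scoring members stood at its T8 level, with a log2 change of 0.07 ± 0.19 (SE).

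**Figure D4:**
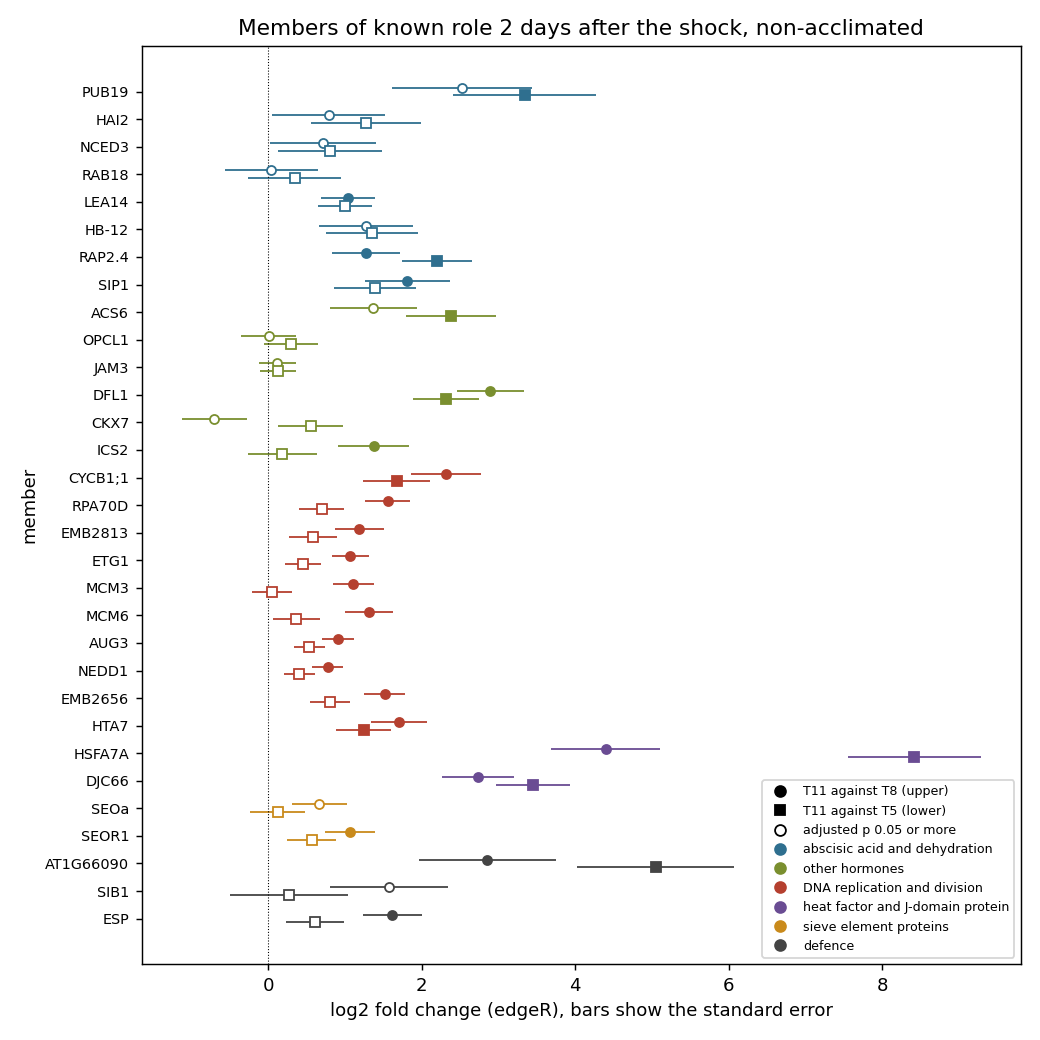
Log2 fold changes with standard errors of 31 members grouped by role, circles for T11 against T8 and squares for T11 against T5; filled symbols passed an adjusted p of 0.05. The 10 replication and division genes are filled at T11 against T8 and mostly open at T11 against T5, and HSFA7A lies farthest right.

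The test of T8 against T5, acclimated leaves 2 days after the shock against 2 days after acclimation, found few changes. HSFA7A was higher, with 15.4 and 22.9 CPM at T8 against 0.535 and 1.79 CPM at T5, a log2 change of 4.02 ± 0.72 (adjusted p = 0.0117, edgeR). AT3G05600 was lower, with 0.676 and 0.724 CPM, from 24 and 19 counts, at T8 against 12.5 and 11.1 CPM at T5, a log2 change of -4.08 ± 0.51 (adjusted p = 0.00104, edgeR). So 1 member was higher and 1 lower, against 0.124% and 1.04% of all genes tested, and 21 members had an unadjusted p under 0.05. The median member change was -0.01, against 0.02 in all genes. Both T8 plates lay above both T5 plates in 18 members (19.7% of all genes tested) and below them in 27 (20.8%). DESeq2 called 2 members higher and 8 lower. Both calls were lost without the T8 plate of batch 1, and that of HSFA7A also without the T5 plate of batch 1. Without the T8 plate of batch 2 there were 2 higher and 4 lower, and without the T5 plate of batch 2 there were 1 and 3.

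The test of T2 against T1 asks what the first 3 h of the ramp did, at 38 °C against dawn at 22 °C, with the hour of day differing as well. HSFA7A was higher, with 65.6 and 70.9 CPM at T2 against 4.31 and 2.35 CPM at T1, a log2 change of 4.32 ± 0.71 (adjusted p = 0.00383, edgeR). ESP was higher, with 21.1 and 46.8 CPM at T2 against 6.09 and 14.1 CPM at T1 (1.76 ± 0.39, adjusted p = 0.0234, edgeR). RPA70D was lower, with 6.64 and 3.87 CPM at T2 against 18.18 and 12.1 CPM at T1 (-1.53 ± 0.30, adjusted p = 0.0112, edgeR), and KNAT5, a homeodomain gene, was lower, with 12.7 and 14.4 CPM against 21.7 and 27.7 CPM (-0.87 ± 0.19, adjusted p = 0.0219, edgeR). These 2 higher and 2 lower members stand against 2.01% and 0.744% of all genes tested. Both T2 plates lay above both T1 plates in 23 members (23.1% of all genes tested) and below them in 35 (27.4%). A further 23 members, 27 in all, had an unadjusted p under 0.05, and DESeq2 called 5 higher and 4 lower. Without the T1 plate of batch 1 there were 0 calls in either direction, without that of batch 2 there was 1 in each. Without the T2 plate of batch 1 there were 2 higher and 1 lower, and without that of batch 2 there were 1 and 0.

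Several of the highest-scoring members were higher at T2 than at T1 on both plates without passing the test. ACS6 had 60.0 and 36.8 CPM at T2 against 10.6 and 20.2 CPM at T1 (log2 change 1.69), and PUB19 had 8.42 and 7.04 CPM at T2 against 2.52 and 1.96 CPM at T1 (1.83). HAI2 had 1.62 and 1.22 CPM at T2 against 0.16 and 0.0435 CPM at T1, from 6 counts and 1 count at T1. ACS6 then stood at 6.02 and 11.3 CPM at T3 and 5.68 and 18.5 CPM at T4, so its level at the middle of the ramp was nearer to its shock level than those at the end of it. Over T1 to T4, RPA70D stood at 18.18 and 12.1, 6.64 and 3.87, 0.354 and 0.244, and 0.203 and 0.701 CPM in batches 1 and 2, with 1 to 5 counts on each plate at T3 and T4. AT5G66230, annotated in the chalcone-flavanone isomerase family, had 0.531 and 0.733 CPM at T3 and 0 and 0.14 CPM at T4, where 0 counts allow up to 0.609 CPM by counting error alone, and 36.6 and 24.4 CPM at T11.

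Of 12 lists with 96 genes of heat, hormone and stress responses, 3 held a member each, and many of the listed genes did not meet the floor of the rule. For comparison, 100 of the 8152 genes that met the floor are members. Of 10 heat stress factors tested, 3 were higher (HSFA7A, HSFA7B and HSFB2B) and 2 lower (HSFA1A and HSFA8) at T11 than at T8, and HSFA7A was the only member. Of 8 heat stress proteins all were higher at T2 than at T1, while at T11 against T8 MBF1C was higher and APX2 lower, and none was a member. Of 4 ACC synthases ACS6 was the member, and none passed at T11 against T8. Of 6 dehydration and cold genes RAB18 was the member, and KIN2 was higher and RD29B lower at T11 than at T8.

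The counts of the other lists at T11 against T8 stand beside 13.4% higher and 13.9% lower of all genes tested. Of 16 jasmonate synthesis and JAZ repressor genes 0 were higher and 7 lower, of 8 MYB and NAC factors 3 were lower, and of 8 WRKY factors 2 were lower. Of 9 ERF factors, 7 calcium and touch genes and 7 genes of reactive oxygen and mitochondrial stress, 1 each was lower and 0 were higher. Their lower counts are near the share of all genes, and their higher counts are below it. Of 5 zinc finger factors none passed, and of 3 tested CBF and DDF factors 1 was higher. The median log2 changes of these lists were between -1.59 and -0.70, except for the CBF and DDF factors (3.06). The lists were chosen with earlier results of these data known, and these counts are a description.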

How the data were processed

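RNA of leaves was sequenced in 43 libraries, and the plate (n = 2 per time point, 1 per batch) was the replicate. The authors deposited raw read counts for every locus, made with TopHat2 2.0.14, Bowtie2 2.1.0.0 and HTSeq on TAIR10, per the submitters' processing notes. The authors also deposited a table of log2 values, with no statement of how they were normalized; its columns have alike distributions. Of its columns 1 matched no sample and was not used. The 5 summary lines of each count table (11.7% to 45.3% of all records) were left out. Their share was uneven: 27.2% to 43.4% in libraries of T11 and 21.7% to 45.3% at T10, against 14.3% to 28.0% at T8 and 12.0% to 28.3% at T5. The part of this difference in the results at T11 was not tested.

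The members, gene lists, tests and alternatives were chosen with earlier results of these data known. Members came from the log2 values. Counts of the tubes of a plate were summed and tested with edgeR 4.0.16 in R 4.3.3 (quasi-likelihood test, TMM scaling, filterByExpr with a smallest count of 10, terms for time point and batch over all 22 plates, Benjamini-Hochberg over 20980 genes, 10 residual degrees of freedom, biological coefficient of variation 0.308). "Passed" and "called" mean an adjusted p under 0.05. Differences per batch are on TMM log2 CPM with a prior count of 2. The labels do not say what separates the batches, and p-values measure only the spread between these plates. TMM factors ran from 0.361 to 1.64, lowest at T4, so the scaling matters most there. Plates of one batch deviated together: the difference between batches correlated between time points across genes with a median r of 0.302 (0.099 to 0.717, 55 pairs), and the labels give the batches, so the batch term is the replicate block. Alternatives used limma 3.58.1 on the log2 values and DESeq2 1.42.0. The fit was tested on simulated data before use. Named genes are the 20 highest-scoring members, the 4 that changed most in each direction per comparison, members in the lists, 3 genes each side of the threshold, and HSP101, HSFA2 and MBF1C; members of the role groups were added after their values were seen. Gene names, coordinates and sequences came from RefSeq TAIR10.1, in which all 100 members were found.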

Additional observations from a re-analysis of the deposited data

Results flagged for a closer look

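In libraries of one time point, 1 library lay apart from the other 3 for 3 of the values examined. The median member at T4 was 3.25 on the deposited log2 scale in batch 2 tube 1, against 3.38 to 3.40 in the other libraries. HAI2 at T5 had a log2 value of 0.90 in batch 2 tube 1 against 4.26 to 4.56, and DJC66 in the same library had 2.67 against 3.06 to 3.10. The check covered the median member and the members ranked 1 to 8 by score, at every time point except T3. The cut-off for a flag assumes independent libraries, and tubes of one plate are not independent. In T5 batch 2 tube 1, which held the HAI2 and DJC66 flags, summary lines were 28.3% of records, against 15.0% in the other tube of that plate. T5 is the reference in 2 of the tests above, and the cause of the flags was not tested.

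In 4 of the 20 highest-scoring members every plate of the non-acclimated seedlings moved up and every plate of the acclimated seedlings moved down between day 16 before the shock and 2 days after the shock. On the deposited log2 scale CYCB1;1 differed by 1.83 and 1.08 for T11 minus T9 and by -1.36 and -0.44 for T8 minus T6 in batches 1 and 2. EMB2813 differed by 1.34 and 0.90 for T11 minus T9 and by -0.61 and -0.04 for T8 minus T6. ESP differed by 0.94 and 1.01 for T11 minus T9 and by -0.61 and -0.71 for T8 minus T6. AT2G02400 differed by 1.43 and 1.09 for T11 minus T9 and by -0.54 and -0.31 for T8 minus T6. Over all members 28 had this pattern, against 12.5% of the genes that met the floor. These differences were not tested, because T6 and T9 helped to choose the members.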

How the results depend on the processing

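Membership depended on the scaling: of the 100 members 67 were shared with the rule on TMM log2 CPM and 29 with the rule on library size log2 CPM, 65 with the lowest and highest tube in place of means, 64 with a floor of 1 and 25 with a floor of 5. Counts of members called moved as follows, and shares of all genes are not given for these settings. With library size scaling they were 21 higher and 2 lower at T11 against T8, 12 higher at T11 against T5, and 8 lower at T2 against T1. With the 2 time points' plates alone they were 0 in both directions at T11 against T8, T11 against T5 and T8 against T5, and 10 higher and 8 lower at T2 against T1. DESeq2 gave 50 higher at T11 against T5, 2 higher and 8 lower at T8 against T5, and 5 higher and 4 lower at T2 against T1; limma gave 7 lower at T8 against T5 and 5 higher at T2 against T1. Without the replicate block 10 members were higher at T11 against T5, against 33 with it, and no other count of members moved by over 1.5 times. Leaving out 1 plate gave 19 to 47 higher and 0 to 1 lower at T11 against T8, 5 to 21 and 0 to 0 at T11 against T5, 0 to 2 and 0 to 4 at T8 against T5, and 0 to 2 and 0 to 1 at T2 against T1. The cause was not tested. The values of named genes were recomputed only for 34 results that had passed in the main fit. Of these 340 recomputed values none changed sign. With all plates under other settings 140 still passed and 30 no longer did, and with the 2 time points' plates alone 4 did and 30 did not. The rest of the 340 came from fits without 1 plate, and their calls are not counted here because 1 time point then keeps 1 plate. At T11 against T8 and T11 against T5 every such fit called fewer members higher than the main fit. Named genes that had not passed were left out of these counts, so the counts say nothing about the signs of those genes. Depth limits members with few counts, such as RPA70D at T3 and T4.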
